A study of Mus musculus with 12 samples.

Results

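The genes described here are 10 core genes of the G1 phase of the cell cycle: the D cyclins Ccnd1, Ccnd2 and Ccnd3, their kinases Cdk4 and Cdk6, the E cyclins Ccne1 and Ccne2, their kinase Cdk2, the inhibitor Cdkn1b and the retinoblastoma gene Rb1. They were picked out by gene name, with earlier results of these data known, and all 10 were found among the 40077 genes of the cell tables and the 34508 genes of the tumor tables. RNA was sequenced from 12 mouse libraries in 4 groups of 3. In culture, Myc-CaP cells received DMSO, or YJ1206 at 1 μM for 24 hours. In the animal experiment, tumors grown under the skin of FVB mice from Myc-CaP cells were taken from mice that received the vehicle, or oral YJ1206 at 100 mg/kg in 3 doses per week. Myc-CaP is 1 cell line, from a prostate carcinoma of a mouse whose prostate expresses a human MYC transgene, so all 4 groups carry that transgene. FVB hosts keep their immune system, and the tumors hold host cells beside the cancer cells. YJ1206 is a PROTAC, which tags CDK12 and CDK13 with ubiquitin so that the proteasome destroys them. Both are kinases of RNA polymerase II that help it through long genes. The question of both comparisons was which transcripts differ after these kinases are degraded.

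As background, D cyclins rise in response to growth signals and activate Cdk4 and Cdk6, which begin to phosphorylate the protein of Rb1. That protein holds E2F transcription factors in check, and its phosphorylation frees them to switch on genes of DNA replication, the E cyclins among them. E cyclins then activate Cdk2, which completes the step into S phase, and the p27 protein of Cdkn1b binds and restrains the cyclin E and Cdk2 pair. Much of this control acts on protein, which was not measured here. Myc, the driver of this cell line, is known to bind the sequence CACGTG, the E-box.

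The 10 genes lie on 7 chromosomes. In the GRCm38 build, GENCODE vM21 places Ccnd1 on the minus strand at chr7:144929931-144939925, Ccnd2 on the minus strand at chr6:127125162-127152193 and Ccnd3 on the plus strand at chr17:47505051-47599691. Cdk4 is on the plus strand at chr10:127063534-127067920 and Cdk6 on the plus strand at chr5:3341485-3531008. Ccne1 is on the minus strand at chr7:38097984-38107534, Ccne2 on the plus strand at chr4:11191351-11204779 and Cdk2 on the minus strand at chr10:128697939-128705031. Cdkn1b is on the plus strand at chr6:134920401-134925513 and Rb1 on the minus strand at chr14:73183673-73325822. The genes therefore range from 4.4 kb (Cdk4) and 5.1 kb (Cdkn1b) to 142.2 kb (Rb1) and 189.5 kb (Cdk6). Other than Ccne1 and Cdkn1b, each overlaps another annotated gene, on the opposite strand in every case and on the same strand too for Rb1. Whether reads were counted by strand is not given in the sources used here, so reads of an overlapping gene may be included. Cdk4 and Cdk6 had estimated counts that were not whole numbers in 6 of 6 libraries of both experiments, at a tolerance of 0.01, whereas the other 8 genes were whole within it. Some of their reads were therefore divided with similar transcripts of other genes, and their values are less certain for it.

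RefSeq promoter windows (GRCm38.p6) were at hand for 6 of the 10 genes: Ccnd3, with 2 start sites, Ccne1, Cdk2, Cdk4, Cdk6 and Cdkn1b. The 250 bases before each start were searched on both strands for the E-box CACGTG, for 4 spellings of the E2F site (TTTGGCGC, TTTCCCGC, TTTGCCGC and TTTCGCGC) and for the GC box GGGCGG; none of these spellings is part of another. Printed here are the windows of the gene that fell furthest in the cells and of the gene that rose furthest, with E-boxes in capitals. The Cdk4 window is chr10:127063285-127063534 on the plus strand, and the Cdkn1b window is chr6:134920151-134920400 on the plus strand.
Cdk4: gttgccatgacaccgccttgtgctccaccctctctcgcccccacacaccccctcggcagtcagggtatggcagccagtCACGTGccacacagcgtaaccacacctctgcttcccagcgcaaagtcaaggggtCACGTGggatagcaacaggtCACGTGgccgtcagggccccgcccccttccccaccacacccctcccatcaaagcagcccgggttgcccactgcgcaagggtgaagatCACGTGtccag
Cdkn1b: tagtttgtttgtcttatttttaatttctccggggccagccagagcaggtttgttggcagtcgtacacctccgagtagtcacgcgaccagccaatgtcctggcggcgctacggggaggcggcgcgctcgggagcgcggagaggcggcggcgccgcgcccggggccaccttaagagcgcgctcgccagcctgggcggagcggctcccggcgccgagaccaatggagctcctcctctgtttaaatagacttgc

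The Cdk4 window held 4 E-boxes, which begin 172, 118, 98 and 11 bases before the start. Of all 32851 promoter windows, 6.02% held at least 1 E-box and 7 windows held 4 or more. The Cdk6 window held 1 E-box, 220 bases before the start, and the windows of Ccnd3, Ccne1, Cdk2 and Cdkn1b held none. One of the 4 E2F spellings, TTTCCCGC, was found in the Cdk2 window, 140 bases before the start, and none in the others; 1.86% of all windows held any of the 4. GC boxes were found in every one of these windows other than that of Cdk6, and in 32.7% of all windows. These matches describe the sequence and are not binding sites that were measured.

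Depth was between 13936984 and 18520071 estimated counts in the cell libraries and between 15391684 and 26928447 in the tumor libraries. Cell libraries of the 2 treatments were numbered in different series, so any batch effect of that kind and the treatment cannot be told apart. In the tumors, library 3 of both groups stood apart in another way: it lay between libraries 1 and 2 for 59.7% of all genes tested in vehicle tumors and for 50.6% in YJ1206 tumors, and for 8 and 9 of these 10 genes. Over all genes tested in the cells, library 3 lay between the other 2 for 36.3% in DMSO and 31.1% in YJ1206. Among the 7701 and 4664 genes that differed between tumor libraries 1 and 2, library 3 lay between them for 88.3% and 88%. In the cells these shares were 84.7% in DMSO and 67.8% in YJ1206, of only 627 and 149 such genes. Picking genes by that difference itself favors library 3 lying between, so the shares of picked genes decide nothing. By the shares over all genes, library 3 may not be an independent replicate in the tumors, which was not tested. Tumor SDs and p-values with n = 3 would then be too small. Tumor results are therefore given with and without library 3 of both groups. Of the epithelial markers, Epcam was at 0 in all 6 cell libraries and Cdh1 was at 0.204 TPM or less, so these defining markers were absent or nearly so. In the cells the 8 leukocyte markers summed to at most 7.78 TPM, with Ptprc and Adgre1 at 0 in every library, and fibroblast markers to at most 0.151 TPM. In tumors 6 of the 8 leukocyte markers, 5 of 5 fibroblast markers and 4 of 4 endothelial markers reached 1 TPM, and the endothelial sum was between 41.0 and 49.7 TPM. The 4 skeletal muscle markers summed to between 12.4 and 536 TPM in vehicle tumors (median 322) and to between 3.40 and 6.06 TPM in YJ1206 tumors. The study's methods state in general terms that replicates were biologically independent, but the labels do not tie a library to a culture or animal, so p-values may measure only the spread between these libraries. In bulk samples fewer cells of a type and less RNA per cell cannot be told apart.

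Levels were compared between genes as TPM, which is scaled for transcript length and library size. In DMSO-treated cells Cdk4 was the most abundant of the 10 at 455 TPM ± 12.9 (SD, n = 3), followed by Ccnd1 at 351 TPM ± 0.838. Cdkn1b came next at 61.7 TPM ± 2.78. Ccne2, Cdk6, Cdk2 and Ccnd3 followed within a narrow range, 46.5 to 52.1 TPM on average, where each overlapped its neighbor. Ccne1 at 25.3 TPM ± 1.39 and Rb1 at 7.98 TPM ± 0.450 were lower, without overlap. Ccnd2 was at the limit of detection, with 6, 6 and 2 estimated counts in DMSO and 3, 5 and 5 in YJ1206, against a floor of 3 counts, and could not be tested in the cells. The order differed in YJ1206-treated cells, where Ccnd1 (224 TPM ± 7.53) was above Cdk4 (187 TPM ± 2.58).

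In vehicle tumors Cdk4 again led at 242 TPM ± 4.72, ahead of Ccnd1 at 153 TPM ± 5.72, and Cdk6 at 109 TPM ± 15.5 came next, followed by Ccnd3 at 76.5 TPM ± 3.85. Ccnd2, nearly absent in culture, was at 2.72 TPM ± 0.419. In YJ1206 tumors Ccnd3 at 86.7 TPM ± 2.52 was above Cdk6 and close below Ccnd1 at 98.0 TPM ± 0.872, with no overlap between them. Levels in cells and tumors come from tables that were made separately, and the tumors hold host cells, so the level differences between materials were not tested.

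**Figure D1:**
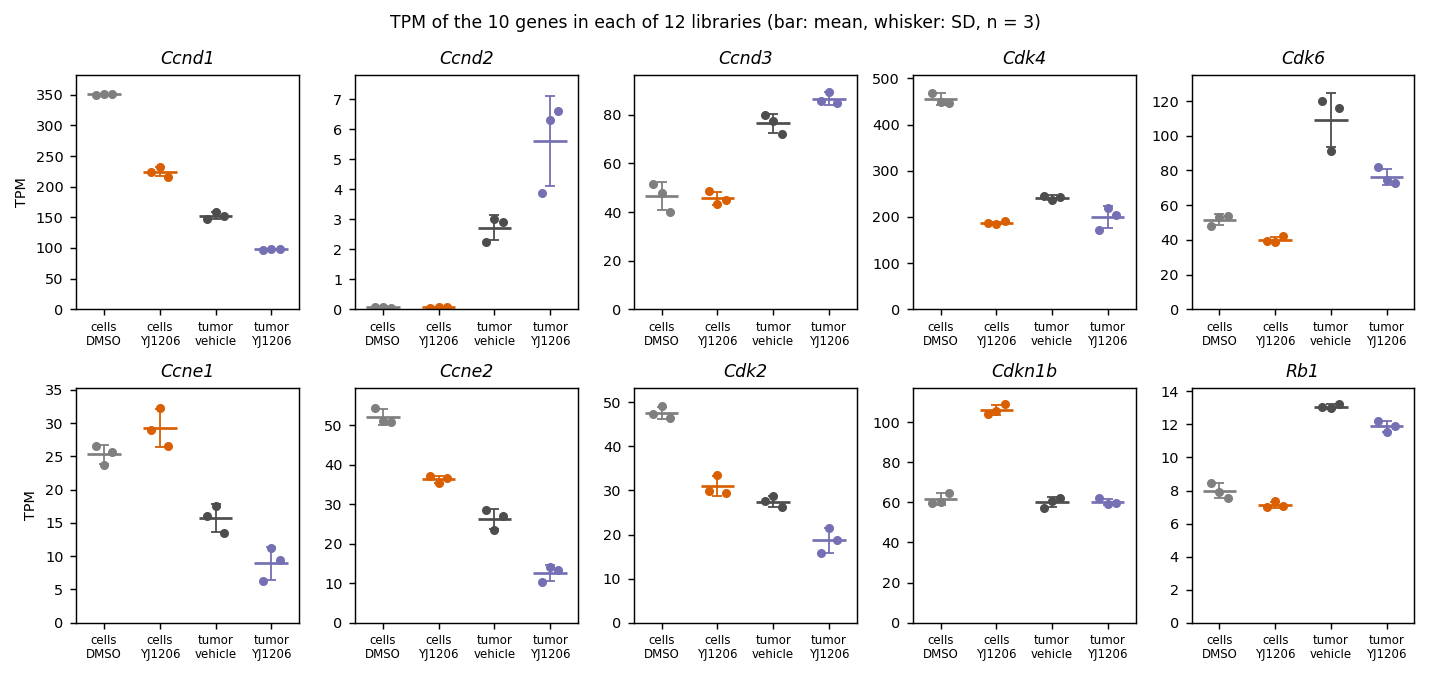
TPM of each of the 10 genes (vertical axes, linear and starting at 0, with their own range) in each of the 12 libraries, by group; bars are means and whiskers SD (n = 3). Cdk4 fell from between 446 and 469 TPM to between 186 and 190 TPM in the cells, Cdkn1b rose from between 59.9 and 64.9 TPM to between 104 and 109 TPM there and lay between 57.2 and 62.3 TPM in both tumor groups, and Ccnd2 was near 0 in cells only.

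In the cells, transcripts of both D cyclin kinases were lower after YJ1206 and the transcript of the inhibitor p27 was higher. Cdk4 fell furthest of the 10, to 0.524 times its level in DMSO, and Cdkn1b rose furthest, to 1.73 times. Ccnd1, Cdk6, Ccne2 and Cdk2 also fell, Ccnd3 and Ccne1 rose, and Rb1 did not pass the test. Of the 9 genes that could be tested with edgeR, 3 rose and 5 fell at an adjusted p under 0.05. That is a share near the background, since 76.1% of all 11826 genes tested passed the same threshold, 37.8% higher and 38.3% lower. The 2 groups did not overlap for 9 of the 9 genes, 4 higher and 5 lower, and for 77.5% of all genes, 38.4% higher and 39.2% lower. The median log2 fold change was -0.21 over the 9 genes and -0.02 over all genes. TMM, the scaling used, assumes that most genes do not change. Scaling to total counts moved the median of all genes to -0.20 and TPM moved it to -0.24. With total counts 28% of all genes passed as higher and 49.7% as lower, and with TPM 21.4% and 52%, and directions that depend on this are named with each gene.

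Among the D cyclins in cells, Ccnd1 was measured at 749.6, 756 and 749 CPM (counts scaled to library size with TMM) in the 3 DMSO libraries and at 589, 611 and 578 CPM in the 3 YJ1206 libraries. Every treated library was below every control, and the log2 fold change was -0.34 ± 0.02 (SE; edgeR adjusted p = 1.16e-12), with -0.53 by total counts and -0.65 by TPM. Ccnd3 was at 41.2, 42.4 and 38.1 CPM in DMSO and at 50.6, 49.4 and 54.9 CPM in YJ1206. It rose by this scaling, with a log2 fold change of 0.35 ± 0.06 (edgeR adjusted p = 5.6e-06), but with TPM it was -0.019 and did not pass (limma adjusted p = 0.861), and its TPM values overlapped between the groups.

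Cdk4 encodes the kinase that D cyclins activate in most tissues. It was at 445, 448 and 439 CPM in DMSO and at 234, 229.96 and 234 CPM in YJ1206, so the levels of the treated libraries were close together and far below the controls. Its log2 fold change was -0.93 ± 0.03 (edgeR adjusted p = 4.77e-21), larger in size than that of 79.2% of the genes tested. The close relative Cdk6 was at 230.4, 214 and 223 CPM in DMSO and at 151, 159 and 139.7 CPM in YJ1206, again without overlap, and fell by 0.57 ± 0.04 on the log2 scale (edgeR adjusted p = 5.54e-13). Both fell under every scaling run, Cdk4 by 1.27 and Cdk6 by 0.36 with TPM.

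The E cyclins moved in opposite directions in the cells. Ccne1 was at 26.2, 22.6 and 23.3 CPM in DMSO and at 31.8, 32.8 and 35.6 CPM in YJ1206, and its log2 fold change was 0.47 ± 0.07 (edgeR adjusted p = 1.57e-06). With TPM the change was 0.20 and just missed the threshold (limma adjusted p = 0.0518). Ccne2 was at 89.1, 83.9 and 82.7 CPM in DMSO and at 74.4, 71.5 and 74.8 CPM in YJ1206, a log2 fold change of -0.21 ± 0.04 (edgeR adjusted p = 8.58e-05). Cdk2, the kinase they activate, was at 59.6, 61.9 and 58.0 CPM in DMSO and at 46.5, 52.2 and 46.6 CPM in YJ1206. Its groups did not overlap, and it fell by 0.30 ± 0.05 on the log2 scale (edgeR adjusted p = 1.32e-05). The decreases were larger without TMM, -0.40 and -0.49 for Ccne2 and Cdk2 by total counts and -0.51 and -0.61 by TPM.

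Cdkn1b, which encodes the inhibitor p27, was at 100.1, 103 and 104 CPM in DMSO and at 170.04, 177 and 184 CPM in YJ1206. The lowest treated library was far above the highest control, and the log2 fold change was 0.79 ± 0.04 (edgeR adjusted p = 1.76e-16), with 0.60 by total counts and 0.78 by TPM. Rb1 was at 22.8, 21.5 and 20.3 CPM in DMSO and at 23.1, 24.5 and 23.7 CPM in YJ1206. These values did not overlap but lay close together, and the log2 fold change of 0.14 ± 0.08 did not pass (edgeR adjusted p = 0.0995). Its sign depended on the scaling, with -0.047 by total counts and -0.14 by TPM.

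**Figure D2:**
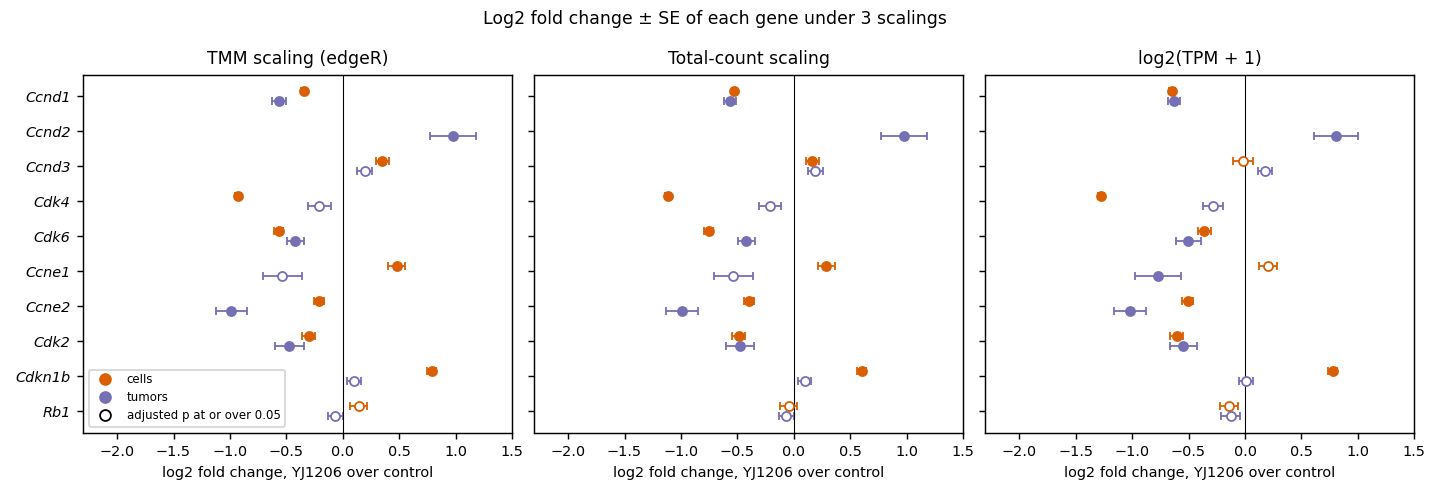
Log2 fold change of each gene, YJ1206 over control (horizontal axis), ± SE in cells (orange) and tumors (purple), with TMM scaling and edgeR, with total counts and edgeR, and as log2(TPM + 1) with limma. Filled points have an adjusted p under 0.05; Ccnd3 and Rb1 in cells lie on the other side of 0 with TPM than with TMM, and Ccnd2 could not be tested in cells.

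In the tumors, transcripts of Ccnd1, Ccne2, Cdk2 and Cdk6 were lower after YJ1206 and that of Ccnd2 was higher. Ccne2 fell to 0.504 times and Ccnd2 rose to 1.97 times its level in vehicle tumors, and neither Cdk4 nor Cdkn1b passed the test. In edgeR, 1 of the 10 genes rose and 4 fell at an adjusted p under 0.05, where 26.8% of all 15558 genes tested passed, 11.9% higher and 14.9% lower. The groups did not overlap for 9 of the 10 genes, 2 higher and 7 lower, against 44.6% of all genes, 21.8% higher and 22.8% lower. The median log2 fold change was -0.31 over the 10 genes and 0.01 over all genes.

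These tumor calls were not kept without library 3 of both groups. Fewer libraries also lower the power of the test, and no fit left out library 1 or library 2 of both groups. The part of library 3 itself in this loss was therefore not tested. With libraries 1 and 2 only, none of the 10 genes and 1 of 15684 genes (0.00638%) passed in edgeR, while 3068 genes had an unadjusted p under 0.05. The log2 fold changes moved little, for example to -0.58 for Ccnd1, 0.98 for Ccnd2, -1.02 for Ccne2, -0.50 for Cdk2 and -0.40 for Cdk6, but with edgeR adjusted p-values between 0.134 and 0.25. Without vehicle library 3 alone or YJ1206 library 3 alone, 3 genes passed and Ccnd2 and Cdk2 were lost. Without YJ1206 library 1, Cdk2 was lost.

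Ccnd1 was at 325, 365 and 341 CPM in the 3 vehicle tumors and at 227, 236 and 234 CPM in the 3 YJ1206 tumors. The treated tumors lay close together and below every control, with a log2 fold change of -0.57 ± 0.06 (edgeR adjusted p = 0.00158). Ccnd2, the D cyclin scarcely found in culture, was at 8.61, 11.3 and 10.5 CPM in vehicle and at 14.4, 24.8 and 20.5 CPM in YJ1206. It was higher in every treated tumor, with a log2 fold change of 0.98 ± 0.21 (edgeR adjusted p = 0.0138). Fibroblast markers summed to 697, 211 and 508 TPM in vehicle tumors 1, 2 and 3 and to 141, 344 and 268 TPM in YJ1206 tumors 1, 2 and 3. Leukocyte markers summed to 355, 213 and 302 TPM and to 209.9, 268 and 245 TPM in the same order. Within each group the tumor with the lowest Ccnd2 level was tumor 1, which had the highest sums of both lists in vehicle and the lowest in YJ1206; their part in the Ccnd2 difference was not tested. Ccnd3 was at 62.6, 64.4 and 67.5 CPM in vehicle and at 69.9, 78.0 and 74.1 CPM in YJ1206, without overlap, and did not pass (log2 fold change 0.19 ± 0.07, edgeR adjusted p = 0.0696).

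Cdk4 was at 258, 263 and 259 CPM in vehicle tumors and at 191, 253 and 231 CPM in YJ1206 tumors. The treated tumors were lower but far apart, and the log2 fold change of -0.21 ± 0.10 did not pass (edgeR adjusted p = 0.162). Cdk6 was at 333, 290.1 and 313 CPM in vehicle and at 250.01, 224 and 225 CPM in YJ1206, and fell by 0.42 ± 0.07 (edgeR adjusted p = 0.00679). It was lower in every treated tumor than in any control.

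Ccne1 was at 13.8, 15.8 and 13.8 CPM in vehicle tumors and at 7.43, 11.3 and 11.2 CPM in YJ1206 tumors. The groups did not overlap, but the log2 fold change of -0.54 ± 0.17 just missed the threshold in edgeR (adjusted p = 0.0573). It passed in DESeq2 (adjusted p = 0.0276) and in limma on TPM (adjusted p = 0.036). Ccne2 was at 48.5, 41.6 and 46.2 CPM in vehicle and at 18.3, 26.0 and 24.2 CPM in YJ1206, and fell by 0.99 ± 0.14 on the log2 scale (edgeR adjusted p = 0.0033). Both E cyclins were lowest in YJ1206 tumor 1. Cdk2 was at 36.2, 39.3 and 34.8 CPM in vehicle and at 22.3, 30.9 and 26.2 CPM in YJ1206, again lowest in that tumor, and fell by 0.47 ± 0.13 (edgeR adjusted p = 0.0294).

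Cdkn1b was at 114, 129 and 124 CPM in vehicle tumors and at 129, 131 and 132 CPM in YJ1206 tumors. These values overlapped, and the log2 fold change of 0.10 ± 0.06 did not pass (edgeR adjusted p = 0.289). Rb1 was at 36.5, 37.7 and 37.2 CPM in vehicle and at 36.0, 34.9 and 35.5 CPM in YJ1206, with a log2 fold change of -0.07 ± 0.06 (edgeR adjusted p = 0.49). All treated tumors were slightly below the controls for Rb1, by less than the test could tell from their spread.

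The effect of YJ1206 in tumors minus that in cells was tested as an interaction over all 12 libraries. Dose, time and route also differ between the experiments, so material and treatment schedule cannot be told apart. In edgeR, 6 of the 10 genes passed, 1 higher and 5 lower in tumors, where 46.8% of the 15328 genes tested passed, 20.9% higher and 26% lower. Ccne1 differed most, with 0.47 in cells, -0.54 in tumors and a difference of -1.04 ± 0.19 on the log2 scale (edgeR adjusted p = 0.000556). Ccne2 fell more in tumors, by a difference of -0.80 ± 0.15 (edgeR adjusted p = 0.000493). For Cdk4 the difference was 0.69 ± 0.11 (edgeR adjusted p = 0.000157), so its decrease was larger in the cells. For Cdkn1b it was -0.72 ± 0.07 (edgeR adjusted p = 2.93e-06), its increase being larger in the cells. These 4 passed in every alternative run, tumor libraries 1 and 2 only included. The differences of Ccnd1 (-0.25 ± 0.06, edgeR adjusted p = 0.00399) and Rb1 (-0.24 ± 0.09, edgeR adjusted p = 0.0459) depended on the scaling, at -0.035 and -0.018 by total counts, where neither passed. Ccnd2, Ccnd3, Cdk2 and Cdk6 did not pass; the difference of Cdk6 was 0.12 ± 0.09 (edgeR adjusted p = 0.323). Cdk6 passed by total counts, at 0.34 (edgeR adjusted p = 0.0103), where the median of all genes was 0.20. Ccnd2 passed with log2(TPM + 1), at 0.80 (limma adjusted p = 0.0107), where that median was 0.13, and Cdk2 passed without YJ1206 tumor 2, at -0.33 (edgeR adjusted p = 0.0372).

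Shares within a library do not depend on the scaling between libraries. Each was compared by an exact two-sided permutation test of 3 against 3 libraries, which cannot go below p = 0.1, and 6 such tests were made. Ccnd1 made up 88.3% ± 1.30 (SD, n = 3) of D cyclin TPM in DMSO cells and 83.0% ± 1.04 in YJ1206 cells, and 65.8% ± 1.51 in vehicle tumors and 51.5% ± 0.782 in YJ1206 tumors. Its share was lower in every treated library than in any control in both experiments (exact permutation p = 0.1 in each, 0.15 after Benjamini-Hochberg adjustment). Computed on estimated counts, which are not scaled for length, the difference was smaller in both experiments. It was -2.92 percentage points in cells against -5.26 by TPM, and -10.8 points in tumors against -14.3 by TPM. With tumor libraries 1 and 2 only, the difference by TPM was -13.9 points.

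Ccne1 made up 32.7% ± 0.836 of E cyclin TPM in DMSO cells and 44.6% ± 2.90 in YJ1206 cells (exact permutation p = 0.1, adjusted 0.15), with no overlap. In tumors its share was 37.4% ± 4.91 in vehicle and 41.2% ± 3.06 in YJ1206, with overlap (exact permutation p = 0.3, adjusted 0.3). Ccne2 was thus the more abundant E cyclin in all 12 libraries. Cdk4 made up 89.8% ± 0.838 of the summed TPM of Cdk4 and Cdk6 in DMSO cells and 82.4% ± 0.452 in YJ1206 cells (exact permutation p = 0.1, adjusted 0.15), with no overlap. In tumors it was 69.0% ± 2.73 in vehicle and 72.2% ± 3.74 in YJ1206, with overlap (exact permutation p = 0.2, adjusted 0.24). With estimated counts the Ccne1 share in tumors differed by 6.02 points without overlap (exact permutation p = 0.1), against 3.81 points by TPM, while tumor libraries 1 and 2 alone gave 1.76 points by TPM for Ccne1 and 1.64 points for Cdk4.

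**Figure D3:**
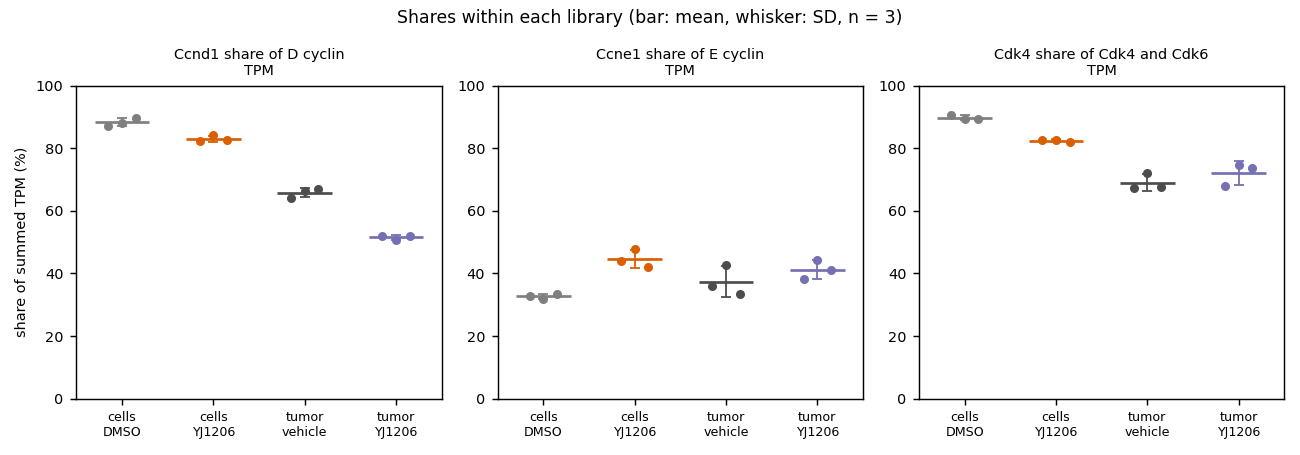
Share of Ccnd1 in D cyclin TPM, of Ccne1 in E cyclin TPM and of Cdk4 in the TPM of Cdk4 and Cdk6 (vertical axes, percent) in each library by group; bars are means and whiskers SD (n = 3). The Ccnd1 share is lower with YJ1206 in cells and tumors, while the shares of Ccne1 and Cdk4 separate the groups in the cells and overlap in the tumors.

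The quotient of estimated count and TPM gives the mean effective length of the transcripts that a gene's reads were assigned to. Over the quotient of the median gene of each library, Cdk6 was at 3.27, 2.72 and 2.85 in DMSO cells and at 2.16, 2.31 and 1.83 in YJ1206 cells. Its reads were thus assigned to shorter transcripts in every treated library, at 71.1% of the control length (exact permutation p = 0.1, the smallest that 3 against 3 can give). Of 10693 genes, 1.46% had a decrease at least as large. Cdkn1b was at 1.13, 1.16 and 1.10 in DMSO and at 0.918, 0.934 and 0.928 in YJ1206, 81.9% of control and again without overlap (exact permutation p = 0.1). A decrease at least as large was found for 3.67% of genes, and 8.50% of genes were shorter without overlap. In tumors Cdk6 was at 102% and Cdkn1b at 102% of the control length, with overlap. The other 7 genes that could be measured in cells were between 98.6% and 105% of control. GENCODE vM21 lists 6 transcripts for Cdk6, from 376 to 11525 bases, and 3 for Cdkn1b, from 1757 to 4552 bases. The fold changes of Cdk6 and Cdkn1b in counts and in TPM therefore measure different quantities. This measure was added after the data were seen.

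**Figure D4:**
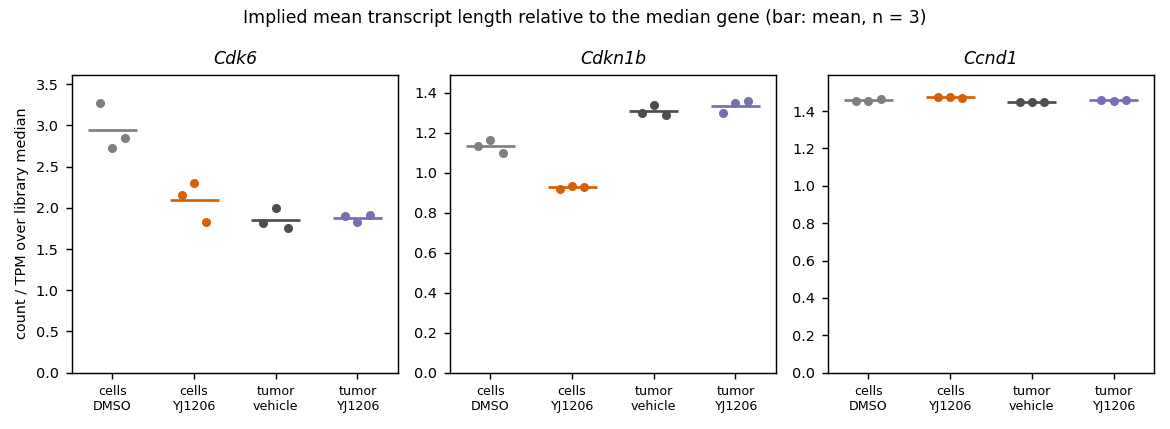
Estimated count divided by TPM, over the same quotient of the library's median gene (vertical axes, no unit, starting at 0), for Cdk6, Cdkn1b and, for comparison, Ccnd1, in each library by group; bars are means (n = 3). Cdk6 and Cdkn1b are lower in the YJ1206 cells than in the DMSO cells and overlap between the tumor groups, and Ccnd1 in treated cells is at 101% of control.

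The other genes of the pathway were taken from 5 lists, whose counts are to be read against all genes tested, of which 37.8% rose and 38.3% fell in the cells and 11.9% rose and 14.9% fell in tumors. Of the 6 further inhibitors of cyclin-dependent kinases, 3 rose and 1 fell in the cells, with a median log2 fold change of 0.28 against -0.02 over all genes. Cdkn1a, which encodes p21 and answers to p53, was at 7.23, 7.90 and 7.51 CPM in DMSO and at 27.6, 24.8 and 27.5 CPM in YJ1206, a log2 fold change of 1.82 ± 0.09 (edgeR adjusted p = 6.01e-16). Cdkn2d (1.14 ± 0.08) and Cdkn2c (0.57 ± 0.04), inhibitors of Cdk4 and Cdk6, also rose. Cdkn2b, low at 2.32 CPM on average in cells and 4.90 CPM in tumors, fell by 1.00 ± 0.25 in the cells. In tumors 1 of the 6 rose, Cdkn2b with a log2 fold change of 1.21 ± 0.17 (edgeR adjusted p = 0.00361), and Cdkn1a was at 0.06 ± 0.06. The median there was 0.07 against 0.01 over all genes. Of the 12 genes of the other pocket proteins and the E2F and DP factors, 9 of 11 tested fell in the cells, against 38.3% of all genes, and 7 of 12 fell in tumors, against 14.9%; Tfdp2 rose in both. Their medians were -0.36 and -0.41, against -0.02 and 0.01 over all genes. Rbl1, the p107 relative of Rb1, fell furthest in both, by 1.43 ± 0.05 in cells and by 1.23 ± 0.17 in tumors.

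Of 9 regulators of the G1 cyclins and their kinases, 3 rose and 6 fell in the cells (all genes: 37.8% and 38.3%), and 2 rose and 3 fell in tumors (all genes: 11.9% and 14.9%), with medians of -0.19 and -0.04 against -0.02 and 0.01 over all genes. Skp2, a part of the ubiquitin ligase that removes p27, fell by 0.60 ± 0.04 in cells and by 0.72 ± 0.11 in tumors. Fbxw7, the part of a ligase that recognizes cyclin E, fell by 0.55 ± 0.08 in cells and was at 0.38 ± 0.07 in tumors, where it rose (edgeR adjusted p = 1e-06 and 0.0069). Of the 5 genes of later cyclins and Cdk1, 2 rose and 2 fell in the cells and all 5 fell in tumors, with medians of -0.08 and -1.59. Of 20 replication genes known as E2F targets, 4 rose and 11 fell in the cells, with a median of -0.10. Of all genes there, 37.8% rose and 38.3% fell. In either direction 76.1% of all genes passed, near the share of this list. All 20 fell in tumors, where 14.9% of all genes fell, with a median of -1.02. Cdt1, a licensing factor, was at 1.15 ± 0.03 in cells and -1.09 ± 0.16 in tumors. The splits in cells depended on the scaling: by TPM 3 inhibitors rose and 3 fell, and 1 of the 5 later cyclin genes rose and 4 fell, as did 17 of the 20 E2F targets while 2 rose. With tumor libraries 1 and 2 only, none of the genes of these 5 lists passed, with medians of 0.07, -0.39, -0.09, -1.59 and -1.05 in the order given.

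**Figure D5:**
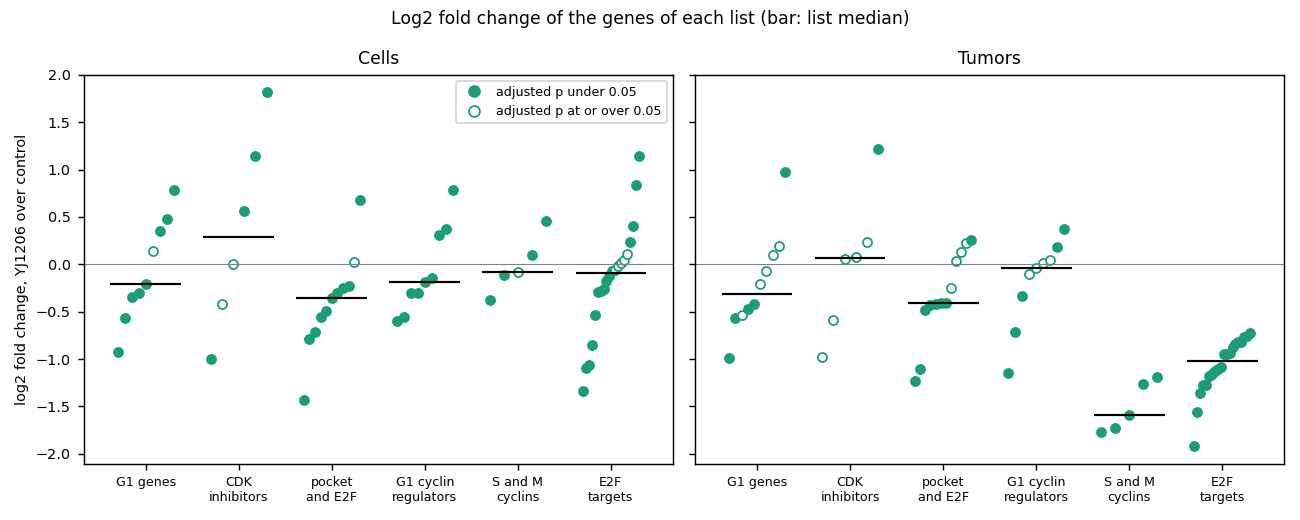
Log2 fold change, YJ1206 over control (vertical axis), of each tested gene of the 10 G1 genes and the 5 lists in cells and in tumors; filled points have an edgeR adjusted p under 0.05 and bars are list medians. In tumors all 20 E2F targets and all 5 later cyclin genes lie below 0, while in cells both lists spread over both sides with this scaling (TMM).

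Likeness of pattern was described by Pearson's r of log2(TPM + 1) over the 12 libraries, among 9962 genes with a mean of at least 5 TPM. The 12 libraries form separate groups, so a high r reflects mostly the differences between them, and no test was made. Among the genes most like Cdk2 were Chaf1b (0.993) and Ska2 (0.988). Those most like Ccne1 were Plk1 (0.987), Seh1l (0.985) and Aurka (0.983), and those most like Ccne2 were Cnot9, Dnmt1 and Ndc1 (all at 0.995). Ccnd1 was most like Tipin, Timeless and Tomm70a (all at 0.996), and Ccnd3 most like Nr2c1 (0.99), Tagln (0.985) and Ddr2 (0.983). Cdk4 was most like Cops7a (0.994), Rab1b (0.993) and Gm20796 (0.992), Cdk6 most like Cebpb (0.989), Nfkbiz (0.984) and Lcor (0.983), and Cdkn1b most like Trex1 (0.99), Gadd45b (0.988) and Id3 (0.987). Rb1 was most like Ehbp1, Birc6 and Kiz (all at 0.992). No gene was sought for Ccnd2, whose mean was under 5 TPM.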

How the data were processed

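RNA-seq libraries were prepared, per the labels, after enzymatic removal of ribosomal RNA, although the cell labels name polyA RNA. The authors deposited estimated counts, not scaled between libraries, and TPM values for each gene. The submitters' processing notes name kallisto, GRCm38 and mm10; the kallisto version is not given in the sources used here. Tests had been planned for counts, so these values were rounded to integers. In R 4.3.3, edgeR 4.0.16 was fitted to the 6 libraries of each experiment by quasi-likelihood (glmQLFit and glmQLFTest) after filterByExpr and TMM, with Benjamini-Hochberg adjustment over all genes tested and a threshold of 0.05. The interaction used all 12 libraries, genes with the same versioned identifier in both tables and 1 spread for cells and tumors. Alternatives were DESeq2 1.42.0, its size factors in edgeR, total counts, no filter, limma 3.58.1 on log2(TPM + 1) and log2(TPM + 0.1), a replicate block, libraries left out and tumor libraries 1 and 2 only. Shares and implied lengths were compared by exact two-sided permutation tests (scipy). The implied length used genes with at least 10 estimated counts in every library and TPM above 0. The steps were tested on simulated data. Some marker and pattern results are not reported here. The 10 genes and the lists were chosen with earlier results of these data known. By the naming rule all 10 genes are named, and any inhibitor, pocket protein, E2F or DP gene may be. In the other lists it takes the 2 largest increases and 2 largest decreases among those past the threshold with at least 5 CPM on average. Depth limits low genes: 3 counts, the floor used, are 0.162 to 0.215 CPM in cells and 0.111 to 0.195 CPM in tumors, for counting error only.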

Additional observations from a re-analysis of the deposited data

Results flagged for a closer look

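Differences between the YJ1206 effect in tumors and that in cells, tested in edgeR as an interaction with an adjusted p under 0.05, were found for 6 of the 10 G1 genes, where 46.8% of all genes tested passed. They are given here as tumors minus cells on the log2 scale, and were -1.04 for Ccne1, -0.80 for Ccne2, -0.72 for Cdkn1b, -0.25 for Ccnd1, -0.24 for Rb1 and 0.69 for Cdk4. The values of Ccnd1 and Rb1 did not pass with total counts.

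The same test passed for other named genes of the pathway. Among the inhibitors the difference was -1.79 for Cdkn1a, 2.19 for Cdkn2b, -0.52 for Cdkn2c and -1.76 for Cdkn2d. Among the E2F and DP factors it was -0.23 for E2f4, -0.19 for Tfdp1 and -0.45 for Tfdp2. Among the regulators it was -0.44 for Ambra1, 0.46 for Cdc37, -1.03 for Cks1b, 0.90 for Fbxw7 and -0.92 for Mnat1. Among the later cyclins and Cdk1 it was -1.38 for Ccna2, -1.68 for Ccnb1, -2.07 for Ccnb2 and -1.39 for Cdk1. Among the E2F targets it was -2.26 for Cdt1, -1.60 for Mcm7, -1.47 for Mybl2 and -1.66 for Rrm2. Cdt1 and Mcm7 were higher after YJ1206 in cells and lower in tumors, and Cdkn2b was lower in cells and higher in tumors. Cdkn2b was low in both, at 2.32 CPM on average in cells and 4.90 CPM in tumors, so its difference is less certain. Host cells, dose, time and route differ between the experiments, and their part in these differences was not tested. Groups of 3 libraries were too small for a search for single outlying libraries.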

How the results depend on the processing

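In cells, 8 of the 9 tested genes passed in edgeR with TMM, its other scalings, no filter and the replicate block, and in DESeq2, and 6 with TPM in limma. Signs turned for Rb1 (-0.0467 by total counts, -0.14 with log2(TPM + 1), -0.16 with log2(TPM + 0.1)) and Ccnd3 (-0.0188 and -0.0191 with these pseudocounts). In tumors no direction of the 10 genes turned in any alternative. The number that passed was between 3 and 5 with 1 library left out, 6 in DESeq2 and limma, and 0 with libraries 1 and 2 only, with or without the replicate block; over all genes it was 4176 in the fit reported, 1877 to 5724 with 1 library left out, and 1 with libraries 1 and 2 only or 0 with the block too. For the difference between experiments, total counts gave 0.0322 for Ccnd3 and 0.0190 for Cdk2. TPM with a pseudocount of 1 gave 0.0140 for Ccnd1, 0.20 for Ccnd3, 0.0588 for Cdk2, -0.14 for Cdk6 and 0.0164 for Rb1, and with 0.1 it gave 0.0114, 0.20, 0.0508, -0.14 and 0.0241; all 12 are reversed in sign and none passed. Total counts and TPM move the median of all genes in cells, and the cause of each turn was not tested further. Rb1 lost its call for the difference in 9 of 12 fits with 1 library left out. Same-numbered libraries did not deviate together (correlations of -0.030 to 0.003), so the numbers were not taken to pair them. With the replicate block, 8905 genes and 8 of the 9 tested G1 genes passed in cells. In tumors 3477 genes and 5 of the 10 G1 genes passed, and for the difference 6853 and 5 of the 10, where Rb1 was lost. The shares kept their direction in every alternative, with 1 library left out between -5.84 and -4.55 (cells) and -15.1 and -13.7 (tumors) percentage points for Ccnd1.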
